A study of Mus musculus with 4 samples.

Results

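Accessible chromatin was examined at 9 interferon response genes, Ifit1, Ifit3, Isg15, Mx1, Oas1a, Irf1, Irf3, Irf7 and Stat2, in transfected mouse fibroblasts. Every ATAC-seq peak that overlapped the body of one of these genes, or the 50 kb on either side of it, was taken from the peak lists of 4 libraries, and peaks sharing at least 1 bp were merged. This gave 84 regions out of 90239 in the series. The cells were the iMGT-Myh6-eGFP-MEF line, mouse embryonic fibroblasts that express the cardiac factors Mef2c, Gata4 and Tbx5 (MGT) under doxycycline and whose name carries a Myh6-eGFP reporter. All groups shared that line, siRNA transfection before induction, doxycycline at 1 μg/mL and harvest at day 1 of MGT overexpression. They differed in the siRNA, which was siControl in 2 libraries and siChst7 in 2 libraries, Chst7 being a sulfotransferase of chondroitin sulfate synthesis. No untransfected or uninduced library was analysed here, so the response to transfection itself could not be measured; the comparison made is siChst7 against siControl. The labels name biological replicates without saying whether they were separate cultures, and p-values measure the spread between these samples only.

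Type I interferon is made when sensors detect foreign nucleic acid, and double-stranded RNA, the form in which an siRNA is delivered, is one of the molecules they can detect. The sensors signal through kinases to Irf3 and Irf7, which switch on interferon genes. Secreted interferon binds its receptor, and a complex that contains Stat2 and Irf9 then binds the interferon-stimulated response element (ISRE) in front of effector genes. Among these are the RNA-binding Ifit proteins, the ubiquitin-like modifier Isg15, the dynamin-like GTPase Mx1 and the Oas enzymes, which make the second messenger that activates RNase L. Irf1 is a further interferon-inducible transcription factor.

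The promoter windows of Ifit1, Ifit3, Isg15, Oas1a and Stat2 carried the ISRE core, and the windows of Irf1 and Oas1a a STAT site. In 300 bp windows, from 250 bp before to 50 bp after each start site in the RefSeq sequences of GRCm38.p6, the ISRE core was searched on both strands as GAAA, any 2 bases and GAAA and the STAT site, named GAS, as TTCNNNGAA, which reads the same on both strands. The table held 8 of the 9 genes, all but Mx1. At least 1 ISRE core was found in 5 of them (10 matches in all, some overlapping) and a GAS match in 2, while 3.44% of all 32851 promoter windows held the ISRE core and 8.30% a GAS match. A stretch of 100 bases is shown for each, 5′ to 3′ on the strand of the gene, because the accessible regions described next lie over these letters; capitals mark the matches.
Ifit1: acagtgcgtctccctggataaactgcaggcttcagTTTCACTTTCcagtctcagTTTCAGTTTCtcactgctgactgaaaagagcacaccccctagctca
Ifit3: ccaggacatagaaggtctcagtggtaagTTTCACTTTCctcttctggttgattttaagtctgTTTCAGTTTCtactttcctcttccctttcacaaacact
Isg15: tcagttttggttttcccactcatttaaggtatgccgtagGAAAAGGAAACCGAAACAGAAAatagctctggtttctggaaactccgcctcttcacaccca
Oas1a: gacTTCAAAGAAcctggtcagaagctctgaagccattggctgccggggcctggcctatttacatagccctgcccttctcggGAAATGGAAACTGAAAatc
Stat2: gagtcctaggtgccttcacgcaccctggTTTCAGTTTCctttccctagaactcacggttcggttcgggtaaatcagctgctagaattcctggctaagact
Irf1: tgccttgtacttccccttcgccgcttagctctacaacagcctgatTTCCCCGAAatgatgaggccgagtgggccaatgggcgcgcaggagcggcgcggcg

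In mm10 these stretches are chr19:34640750-34640849 (plus strand) for Ifit1, chr19:34583345-34583444 (plus) for Ifit3, chr4:156200836-156200935 (minus) for Isg15 and chr5:120907527-120907626 (minus) for Oas1a. That of Stat2 is chr10:128270248-128270347 (plus) and that of Irf1 is chr11:53769879-53769978 (plus). Ifit1 and Ifit3 each held 2 ISRE cores on the strand opposite to the gene, with the same letters, TTTCACTTTC and TTTCAGTTTC, in the same order. Isg15 held 3 overlapping cores, which began 78, 72 and 66 bp before its start site, and Oas1a 2 overlapping ones, 20 and 14 bp before. The single core of Stat2, also TTTCAGTTTC, lay farther out, 222 bp before the start. Of the 10 ISRE matches, 9 lay inside a peak in all 4 libraries and 1, the match of Ifit3 nearer to its start site, lay inside a peak in 3.

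The libraries differed in depth. The deposited lists held 66165 to 75696 peaks, fewest in siChst7 replicate 2, and fold values of weak peaks, which move in steps of 1 read, put its background density at 0.757 times that of siControl replicate 1, with siControl replicate 2 at 0.964 and siChst7 replicate 1 at 1.024 times. Of the 90239 regions, 55924 (62.0%) were called in all 4 libraries and are called shared here. The cell type was checked at marker genes. All 8 of 8 fibroblast genes, among them Col1a1, Pdgfra and Twist1, had a region within 1 kb of a start site, or of either gene end where no promoter entry was held, in all 4 libraries. So did 1 of 7 leukocyte genes (Spi1, by a gene end), 0 of 4 endothelial, 1 of 4 epithelial (Krt8) and 2 of 4 cardiomyocyte genes (Tnnt2, Myh6). Of all protein-coding genes 54.2% had such a region in all 4 libraries. The marker sets are small, and their counts were not tested. Ptprc, Csf1r, Adgre1, Itgam and Lyz2 had no such region in any library, and Cd68 had one in 3 libraries. By −log10 q among shared regions, the mean percentile rank was 79.9 for Spi1 and 26.4 to 87.4 for the fibroblast genes. The name of the line carries a Myh6-eGFP reporter, and whether the reporter adds reads at Myh6 was not tested.

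A merged region called in all 4 libraries lay over the start site of 8 of the 9 genes, and Mx1 was the exception. In 7 of the 8 genes the peak of each library covered the start itself. In Ifit3 it did so in siControl replicate 1 only, and the peaks of siControl replicate 2 and of siChst7 replicates 1 and 2 ended 42, 80 and 141 bp upstream of the start. Over all 21887 protein-coding genes, 54.2% had a region within 1 kb of a start site in all 4 libraries and 42.0% had none in any. Strength is given in 2 ways. The fold enrichment is the authors' ratio of the pileup at the peak summit to the local background of the same library. Their −log10 q was turned into a percentile rank among the 55924 shared regions within each library, so that lists of unequal depth are ranked over the same regions. Ranked higher, lower or top refers to that percentile rank, and the top-ranked region of a window is the shared region with the highest median rank over the libraries. By that rank the transcription factor genes Stat2, Irf1 and Irf3 stood high, and the effector genes and Irf7 stood lower.

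Of the signalling genes, Stat2, the interferon-specific STAT, had the strongest start-site region. It lay at chr10:128270021-128270937, with fold enrichments of 16.0 and 16.0 in siControl replicates 1 and 2, and of 14.5 and 16.0 in siChst7 replicates 1 and 2. Its −log10 q was 318, 302, 279.8 and 253 in the same order, lowest in the shallowest library. The percentile rank stayed between 98.6 and 99.3, and the groups overlapped. Irf1, at chr11:53769583-53770792, covered both annotated starts of the gene and had fold enrichments of 13.3 and 12.4 in siControl and 12.1 and 13.4 in siChst7. Its percentile ranks lay between 88.0 and 90.5, with 1 siChst7 library at each extreme.

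Irf3, the factor that sensors activate first, had its region at chr7:44997022-44998188. Fold enrichments of 12.4 and 10.8 in siControl stood against 10.1 and 10.1 in siChst7, and percentile ranks of 91.4 and 85.7 against 85.2 and 85.1. Both siChst7 libraries were below both siControl libraries, with siControl replicate 1 apart from the other 3. The start of Bcl2l12, which is transcribed away from Irf3, lies in the same region, so the signal cannot be assigned to either gene alone. Irf7, which amplifies the interferon response, had a broad region at chr7:141265033-141266750 that covered its start and part of its 3317 bp body. In siChst7 replicate 2 this region held 2 peaks, the strongest 643 bp wide. Each of the other libraries had a single peak of 1570 to 1708 bp. Fold enrichments of 7.46 and 7.41 in siControl stood against 6.28 and 6.83 in siChst7, and percentile ranks of 54.3 and 48.3 against 41.4 and 45.9, again with both siChst7 libraries lower.

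Among the effectors, Isg15 was the single member whose start-site region ranked higher in both siChst7 libraries than in both siControl libraries. This region, at chr4:156200717-156201037, was narrow, 321 bp, and had fold enrichments of 4.37 and 4.70 in siControl and 5.23 and 5.07 in siChst7. The percentile rank was 37.2 and 45.9 in siControl libraries against 53.6 and 48.3 in siChst7. Ranked by fold enrichment instead, the same region stood much lower in its libraries, at percentiles of 6.56 and 8.77 against 13.0 and 12.2, with the groups apart in the same direction.

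Oas1a, one of the oligoadenylate synthetase genes, had fold enrichments of 10.4 and 9.27 in siControl and 9.52 and 8.28 in siChst7 at chr5:120906880-120907758. Ifit1, at chr19:34640512-34641354, had 5.97 and 7.28 against 6.68 and 5.33. Ifit3, at chr19:34582720-34583563, had 6.66 and 7.19 against 7.34 and 6.04. In all 3 the groups overlapped, and siChst7 replicate 2 gave the lowest fold enrichment of the 4 libraries. The percentile ranks ran from 33.4 to 43.9 for Oas1a, from 12.3 to 28.7 for Ifit1 and from 8.70 to 17.2 for Ifit3. The region at Ifit1 also holds the start of Ifit1bl2, a gene related to Ifit1.

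**Figure D1:**
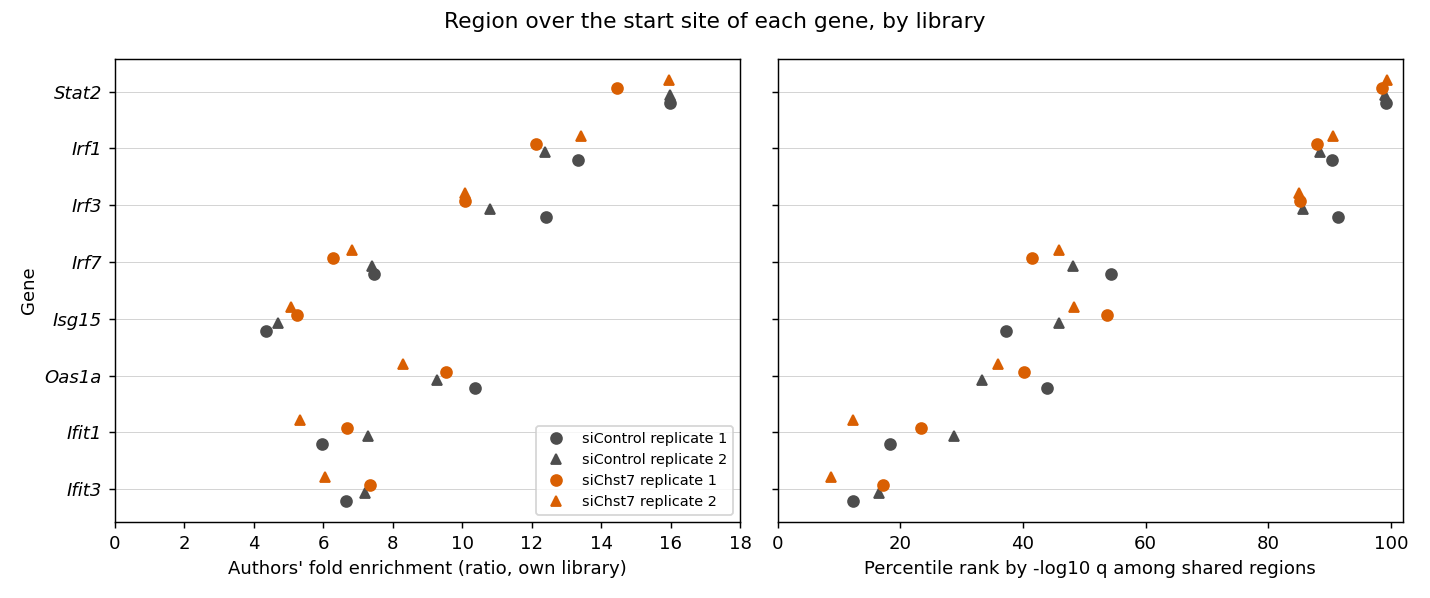
Fold enrichment (left, the authors' ratio) and percentile rank by −log10 q among shared regions (right) of the region over the start site of 8 genes, 1 point per library (grey siControl, orange siChst7; circles replicate 1, triangles replicate 2). Stat2, Irf1 and Irf3 lie above the 85th percentile in every library, Ifit1 and Ifit3 below the 29th, and Isg15 is the gene where both orange points lie above both grey ones.

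In order of mean percentile rank over the 4 libraries, the genes ran Stat2 (99.0), Irf1 (89.3), Irf3 (86.8), Irf7 (47.5), Isg15 (46.3), Oas1a (38.4), Ifit1 (20.7) and Ifit3 (13.7). The ranges over libraries overlapped between Irf1 and Irf3, between Irf7, Isg15 and Oas1a, and between Ifit1 and Ifit3. Taken library by library, Ifit1 ranked above Ifit3 and Irf7 above Oas1a in 4 of 4, Irf1 above Irf3 and Isg15 above Oas1a in 3 of 4, and Isg15 above Irf7 in 2 of 4. Ranked by fold enrichment the first 3 genes were in the same order and the others were not: Oas1a (mean percentile 50.5) came next, then Irf7 (28.7), Ifit3 (27.1), Ifit1 (22.5) and Isg15 (10.1). By −log10 q and set against the start-site regions of all protein-coding genes, 96.4% of which ranked below that of Stat2, the regions of Irf1 and Irf3 lay near the middle, above 61.4% and 54.9% of them. The regions of Irf7, Isg15 and Oas1a were above 13.1%, 12.6% and 9.42%, and those of Ifit1 and Ifit3 above 3.999% and 2.26%. The promoter windows of the 3 genes that came first by both measures held more CG dinucleotides, 22 in Stat2, 18 in Irf3 and 32 and 43 at the 2 starts of Irf1, against 7 in Irf7, 6 in Isg15, 4 in Ifit1, 3 in Oas1a and 1 in Ifit3. Over all 17492 protein-coding genes with a promoter entry, 80.9% of those with 10 or more CG had a start-site region in all 4 libraries, with a median rank of 87.1, and 15.4% of those with fewer did, with a median rank of 65.7. Genes with an ISRE core in the window (689 genes) had one in 49.6% of cases, and those without it in 54.5%. Whether CG content or the ISRE core bears on the order of these genes was not tested.

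The summit of the peak lay close to the start site in most of these genes. In Isg15 it was between -27 and -9 bp (negative is upstream) in all 4 libraries, and in Stat2 between -45 and 3 bp. In Oas1a it fell on either side, from -36 to 43 bp, around the ISRE cores at 20 and 14 bp before the start. In Ifit1 it was at -117 bp in siControl replicate 1 and between -48 and -43 bp in the other 3. Ifit3 differed from these, with summits from -414 to -253 bp, upstream of both of its ISRE cores. Its close copy Ifit3b, 75.0% identical over 268 aligned promoter bases, lies nearby, as do several Oas1 genes (Oas1g, 69.5% over 298 bases). How reads that match several copies were handled is not given in the sources used here, so values at Ifit and Oas1 genes are uncertain to that extent.

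Tested singly, none of the 8 start-site regions could reach a small p, since 2 libraries against 2 give no two-sided exact permutation p below 0.333. The groups did not overlap in 3 regions: Isg15 was 9.40 percentile points higher with siChst7 (41.6 ± 6.16 in siControl, 51.0 ± 3.77 in siChst7, SD, n = 2 each, exact permutation p = 0.333). The difference was -7.61 points in Irf7 (51.3 ± 4.28 in siControl, 43.7 ± 3.17 in siChst7, exact permutation p = 0.333) and -3.39 in Irf3 (88.5 ± 4.06 and 85.1 ± 0.109, exact permutation p = 0.333), n = 2 each. These 3 kept their direction when ranked by fold enrichment and without any 1 library, but without siControl replicate 1 the difference was -0.50 in Irf3, 4.94 in Isg15 and -4.45 in Irf7. The difference was -5.71 points in Ifit1, -1.45 in Ifit3, -0.56 in Oas1a, -0.15 in Irf1 and -0.13 in Stat2, with overlapping groups (exact permutation p of 0.667 in Ifit1 and 1 in the other 4), and the sign of each of these 5 turned without 1 of the libraries. Among all 11852 protein-coding genes with a shared start-site region, 12.7% had it higher and 23.0% lower in both siChst7 libraries, so that 1 higher and 2 lower of 8 is near the background.

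Mx1 had no region in its body (chr16:97447035-97462906) in any library. The RefSeq table, which is of the C57BL/6J strain, lists Mx1 and its neighbour Mx2 as transcribed pseudogenes, and the mouse strain of the line is not given in the sources used here. The nearest call was a weak peak at chr16:97462942-97463177, 36 bp beyond the gene end of higher coordinate, with a fold enrichment of 3.91 in siControl replicate 2 and no call in the other 3. The strand of Mx1 is not in that table, so this end is not named as its start. A region 2.63 kb beyond the other end, chr16:97443663-97444408, was called in all 4 libraries at 16.5 and 16.8 in siControl and 15.0 and 16.0 in siChst7. The top-ranked region of the window, chr16:97475354-97476063, lay inside Fam3b, 12.4 kb away, with percentile ranks of 94.6, 95.01, 91.3 and 95.7.

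Across all 9 windows, 61 of the 84 regions (72.6%) were called in all 4 libraries, against 62.0% of all regions in the series. Of the others, 8 were called in 3, 8 in 2 and 7 in 1. Each library called 67 to 75 of the 84, with 67 in siChst7 replicate 2. Only 10 of the 84 lay over a member's start or in its body, while the other 74 were in the flanks, 17 of these over the start of another gene. The 2 windows on chromosome 19 shared 2 regions. Isg15 was the window in which all regions, 8 of 8, were called in every library. The share was 3 of 7 at Mx1, 7 of 11 at Oas1a, 10 of 15 at Irf3, 5 of 7 at Ifit1, 8 of 11 at Irf1, 8 of 10 at Ifit3, 9 of 11 at Stat2 and 5 of 6 at Irf7.

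**Figure D2:**
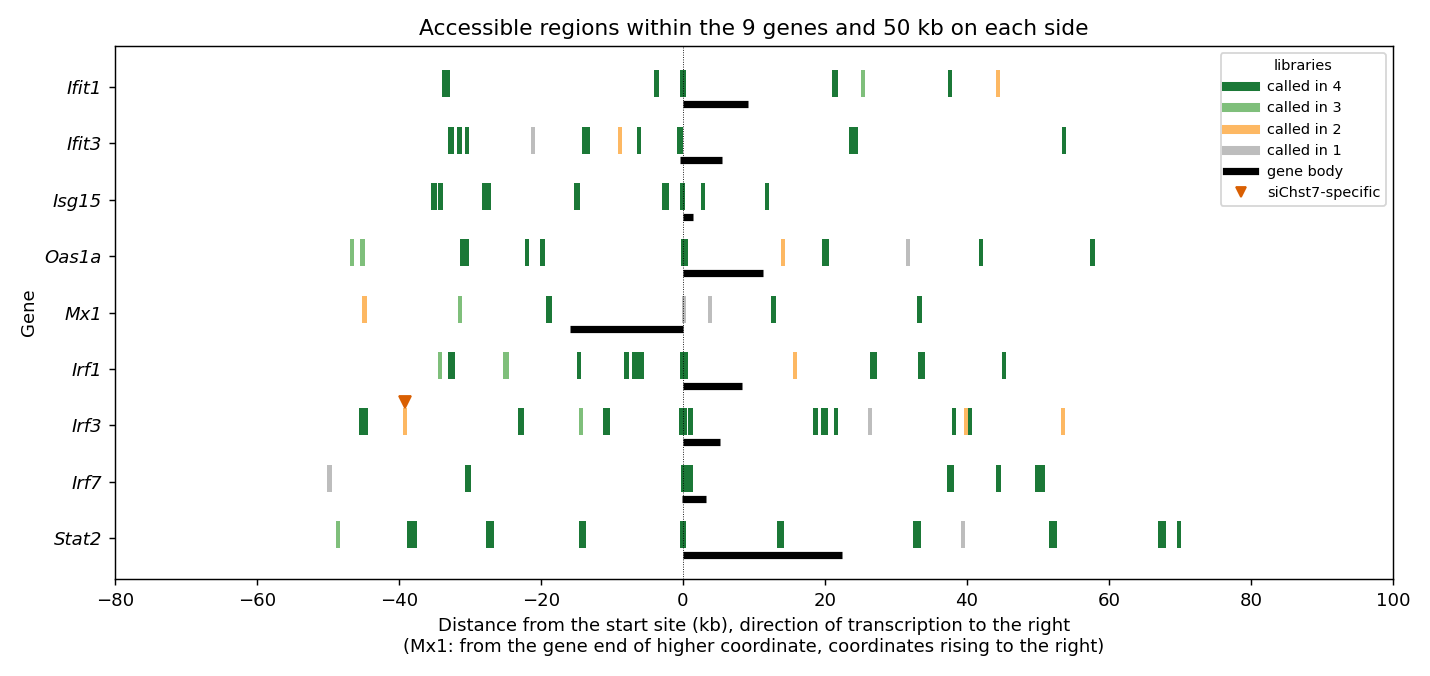
Regions in each gene body and its 50 kb flanks, by distance in kb from the start site along the direction of transcription (for Mx1, from the gene end of higher coordinate), drawn to scale except that narrow regions are widened to stay visible, and shaded by the number of libraries with a call. The start of every gene except Mx1 lies in a merged region called in 4 libraries, and the single siChst7-specific region (triangle) is 39.0 kb upstream of Irf3.

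A single region was siChst7-specific, meaning that siChst7 replicates 1 and 2 called it and no siControl library did, and none was specific to siControl in the same sense. It lay at chr7:44958329-44958659, inside Cpt1c, a carnitine palmitoyltransferase gene used mainly in neurons, 39.0 kb upstream of Irf3. Its authors' fold enrichment reached 4.59 and 6.24 and its −log10 q 9.06 and 14.3 in siChst7 replicates 1 and 2. The 1 of 84 (1.19%) compares with 1.24% of all regions, and the 0 of 84 with 2.84%. The call at Cpt1c was also made with a −log10 q of at least 5, with lists of equal length and with peaks of at least 200 bp, and, slightly shifted, with windows around the summits.

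Of the 61 shared regions, 8 (13.1%) ranked higher in both siChst7 libraries than in both siControl libraries and 19 (31.1%) ranked lower, and 20.2% of all shared regions did so in each direction. The median difference was -1.05 percentile points over these 61 regions and -0.04 over all shared regions. Regions of 1 window are neighbours on a chromosome and are not independent, and no test was made of these counts. The lower calls were spread over the windows, 4 at Ifit3, 4 at Irf3, 3 at Isg15, 3 at Irf1, 2 at Ifit1, 2 at Stat2, 1 at Oas1a and 1 at Irf7, with 1 counted at both Ifit genes. The higher calls were 2 at Irf3, 2 at Stat2 and 1 each at Isg15, Irf1 and Irf7, with 1 more shared by the Ifit windows.

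At the Ifit locus, the start-site region of Ifit3b, at chr19:34606968-34608154, was the one that ranked higher with siChst7. Fold enrichments were 6.51 and 6.17 with siControl, below the 7.14 and 7.25 with siChst7. The top-ranked region of the Ifit3 window lay over the start of Ifit2, another Ifit gene, at chr19:34550476-34551337, and had 8.31 and 8.30 in siControl against 7.57 and 7.55 in siChst7. The difference was 7.99 percentile points at Ifit3b and -1.80 at Ifit2, and neither was tested. Of all shared regions, 20.2% ranked higher and 20.2% lower. With summit windows the Ifit3b region held a siControl-specific window, chr19:34607237-34607570, beside a siChst7-specific one, chr19:34607580-34607828. The region 3.49 kb upstream of Ifit1, chr19:34636939-34637395, ranked lower, with 9.99 and 10.8 against 9.60 and 7.73. So did the top-ranked region of the Ifit1 window, 20.99 kb downstream at chr19:34661876-34662678, with 12.9 and 12.1 against 11.4 and 10.8.

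Of the 8 shared regions in the Isg15 window, 3 flanking ones ranked lower with siChst7 and 1, the start-site region, ranked higher. Over all shared regions 20.2% ranked lower and 20.2% higher, and these counts were not tested. The closest of the 3 lower regions lay 1.90 kb upstream, over the start of AW011738, at chr4:156202717-156203817. Its fold enrichments were 8.14 and 7.70 in siControl and 7.25 and 6.15 in siChst7. The top-ranked of the window, 2.55 kb from the start on the other side at chr4:156197791-156198267, had 12.2 and 13.0 against 10.3 and 11.3. The largest difference of any region in the 9 windows was at Oas1a, 41.8 kb downstream of its start and inside Oas1h, at chr5:120865281-120865747. There siControl had fold enrichments of 12.8 and 13.7 and siChst7 of 9.78 and 8.58, and the percentile rank was 19.6 points lower (49.5 and 55.5 against 34.9 and 31.0). This region was singled out after its values were seen. The top-ranked region of the Oas1a window, at chr5:120937652-120938978, overlapped between the groups, with 13.0 and 11.8 against 11.8 and 13.1.

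In the bodies of the factor genes 2 further regions were called, both in all 4 libraries. The one in Irf3, chr7:44998474-44998923, 0.826 kb inside the gene, had fold enrichments of 4.57 and 5.41 in siControl and 4.02 and 4.46 in siChst7, and ranked lower with siChst7, as the start-site region next to it did. The one in Stat2, chr10:128283757-128284666, 13.3 kb inside the gene, had 11.3 and 10.2 against 12.6 and 9.05, with siChst7 libraries at both extremes. The top-ranked region of the Irf1 window lay 5.52 kb upstream of the start, over Mir7671, at chr11:53762775-53764497. It had 8.14 and 8.27 in siControl and 7.28 and 7.72 in siChst7, and percentile ranks of 92.4 and 92.8 against 89.8 and 90.4; by fold enrichment the start-site region of Irf1 was the stronger one. In the windows of Irf3 and Irf7 the top-ranked regions lay outside the genes, at the start of Rras (percentile ranks 97.0 to 98.2, groups overlapping) and 44.0 kb downstream of Irf7 (97.1 and 97.6 against 97.7 and 98.2).

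**Figure D3:**
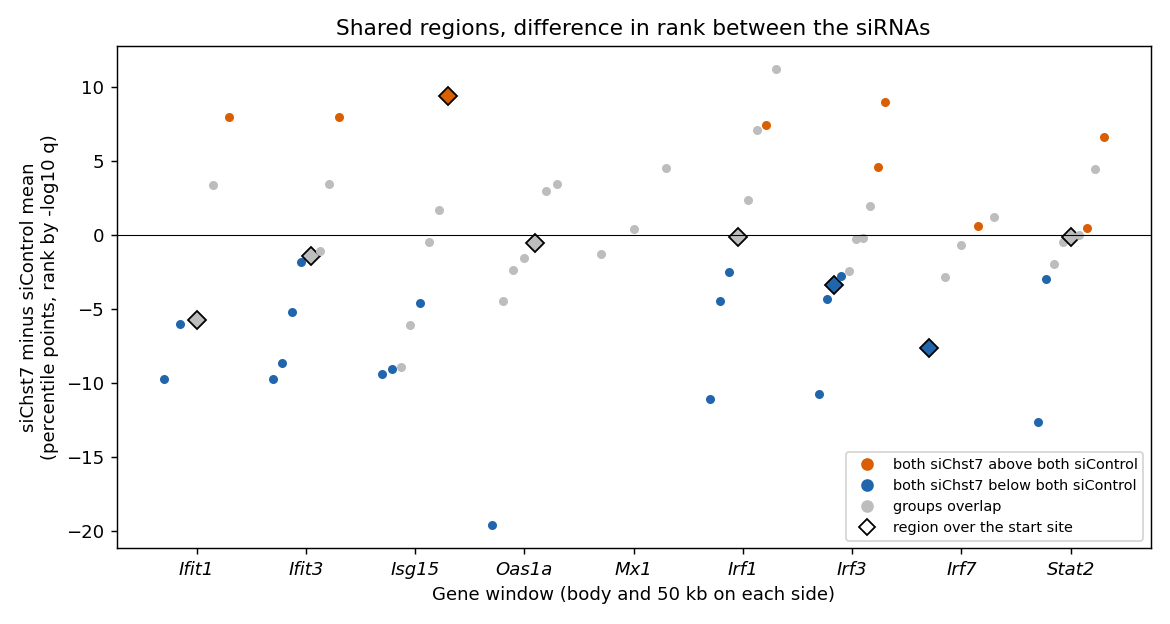
Difference in mean percentile rank, siChst7 minus siControl, for each shared region by gene window (orange, both siChst7 libraries above both siControl libraries; blue, both below; grey, overlapping; diamonds, regions over a start site; the 2 regions shared by Ifit1 and Ifit3 are drawn in both). The start-site diamonds lie between -7.61 and 9.40 points, and the lowest point, at -19.6, is the region inside Oas1h.

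The wider interferon pathway was read from a list of 90 genes, chosen with earlier results of these data known. A region within 1 kb of a start site was called in all 4 libraries for 71 of them (78.9%), against 54.2% of protein-coding genes, and 16 had none in any library. Where the promoter table had no entry, both ends of the gene were used. Among genes with an entry, 23 of 73 (31.5%) held an ISRE core, against 3.94% of all protein-coding genes with one. No gene had a start-site region that all libraries of 1 siRNA called and all libraries of the other lacked. The regions of the 71 genes, 70 distinct ones since Tap1 and Psmb9 share theirs, ranked higher with siChst7 for 11 genes (15.5%) and lower for 17 (23.9%), near the 12.7% and 23.0% of all genes.

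The interferon genes themselves were the role without any call. None of the 7 ligands, Ifnb1, Ifna2, Ifna4, Ifnk, Ifng, Ifnl2 and Ifnl3, had a start-site region in any library. Of all protein-coding genes 42.0% had none either. The ligand windows held 2 to 7 CG, and 15.4% of all genes with 0 to 9 CG had a region in all 4 libraries. A link between CG content and the missing calls was not tested. The receptor subunits were called in 5 of 6, with mean percentile ranks of 97.4 for Ifnar1, 76.3 for Ifnar2, 98.9 for Ifngr1 and 39.9 for Ifngr2; Ifnlr1, of the type III receptor, had none. All 6 kinases and STATs were called, among them Jak1 (90.1), Tyk2 (94.5) and Jak2 (68.2). Of the IRF family 6 of 9 were called in all libraries, such as Irf2 (83.9) and Irf9 (88.7), whereas Irf5 and Irf8, which act mainly in immune cells, had none and Irf4 was called in 3 libraries.

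The sensors and adaptors were called in 13 of 15 genes, and the endosomal sensors Tlr7 and Tlr8 were the other two. The double-stranded RNA sensors Tlr3 (75.0), Ddx58, which encodes RIG-I (49.4), and Ifih1, which encodes MDA5 (67.2), all had a region. Of the 32 effectors 26 did, and they had the widest spread, from 10.03 for Oasl2 to 95.6 for Bst2, a protein that tethers budding virus. Ifit2 stood at 80.4. Besides Ifit1 and Ifit3, low ranks were found, in examples chosen after their values were seen, at Rsad2 (10.5), Ifit3b (12.7) and Parp14 (15.1). Oas2, Oas3, Ifi44 and Ifitm1 had none. An ISRE core was present in 13 of the 25 effector genes with a promoter entry.

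Genes of ISG15 conjugation (5 of 5), antigen presentation (7 of 7) and feedback (5 of 5) were all called in every library. Usp18, the protease that removes Isg15 from proteins and restrains receptor signalling, ranked higher with siChst7 (88.1 and 89.4 in siControl, 92.7 and 92.1 in siChst7). So did Uba7, the enzyme that activates Isg15 (94.03 and 94.8 against 94.995 and 96.2). Of the feedback genes, Socs3 (82.1 and 84.3 against 87.1 and 88.9) and Ptpn1 (93.6 and 90.4 against 94.7 and 95.1) also ranked higher. On the other side were the RNA-activated kinase gene Eif2ak2 (85.5 and 87.6 against 85.4 and 84.4) and Nlrc5, an activator of antigen presentation genes (79.2 and 79.04 against 70.4 and 74.7). These examples were chosen after their values were seen. For Usp18 and Nlrc5 no start site was held, and the best-ranked shared region within 1 kb of either gene end was used. Which end is the start was not identified. These regions, chr6:121271910-121272812 for Usp18, may therefore lie at the far end of the gene and not at its promoter. Peaks do not measure transcripts, and expression of these genes was not analysed here.

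**Figure D4:**
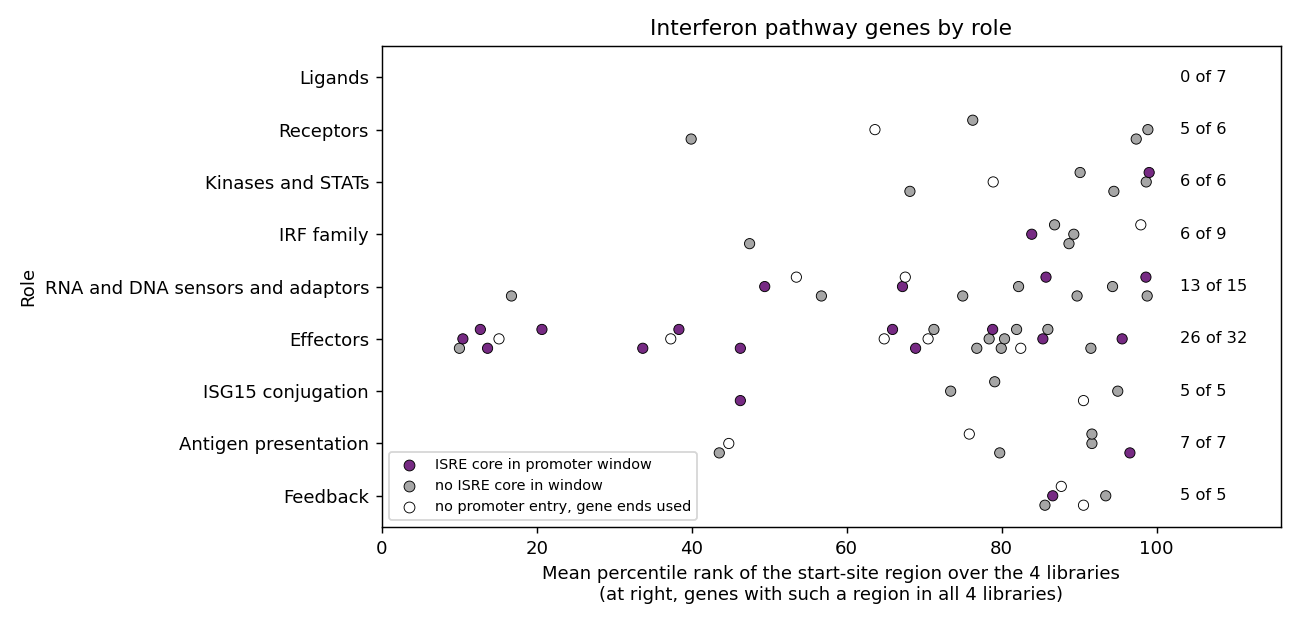
Mean percentile rank over the 4 libraries of the start-site region of each interferon pathway gene called in all 4, by role (purple, ISRE core in the promoter window; grey, none; white, no promoter entry), with counts of such genes at the right. Ligands have 0 of 7 genes called, and the 26 effectors called spread from 10.03 to 95.6.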

How the data were processed

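ATAC-seq peak lists of 4 libraries were used. The authors called peaks per library, since peak names refer to 1 alignment each. Bowtie, SAMtools, MACS3, bedtools, HOMER and mm10 are named in the submitters' processing notes, with no version or role. Duplicate removal and the Tn5 shift are not described there. Each peak carries the authors' fold enrichment (a ratio to local background in that library), a −log10 p and −log10 q, a score deposited as 10 times −log10 q, and a summit offset. These are the authors' values and were used within a list.

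Peaks on chromosomes 1 to 19, X and Y were merged at 1 bp overlap (62 to 77 peaks per library left out). A region's value in a library is that of its strongest peak. Ranks were taken among regions called in all 4 libraries, "higher" or "lower" meaning both siChst7 ranks beyond both siControl ranks. Read totals are not in the lists; relative background density came from the step of fold enrichments at peaks with −log10 q under 8, where 33.1% to 45.8% lay on whole multiples within 0.001. Gene positions and promoter windows came from RefSeq, GRCm38.p6, the assembly of mm10. Start sites came from promoter entries, held for 17492 of 21887 protein-coding genes; gene ends served otherwise. Single regions were compared by two-sided exact permutation over libraries; counts were not tested. Members and lists were chosen with earlier results of these data known. Named regions are the start-site, group-specific, body and top-ranked regions of each window. Other flank regions named were chosen after their values were seen. The values of 1 listed pathway gene are not reported here. Alternatives were summit windows of 200 bp, equal list length, −log10 q of 5 or more, peaks of at least 200 bp, 10 kb flanks, rank by fold, a 2.5 kb start window, the replicate block and leaving out each library. Python 3.11.15, pandas 2.3.3, numpy 2.4.6 and matplotlib 3.10.9 were used.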

Additional observations from a re-analysis of the deposited data

How the results depend on the processing

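Counts at the 9 genes depended on how peaks were defined. The siChst7-specific regions numbered 1, and 3 with summit windows, 2 with equal list length, 2 with peaks of at least 200 bp and 0 with 10 kb flanks; of all regions, 1.24%, 1.54%, 1.96% and 1.36% were so called in the first 4 of these. The siControl-specific regions numbered 0, and 2 with summit windows and 1 with a −log10 q of at least 5, against 2.84%, 3.10% and 2.70% of all regions. With 10 kb flanks there were 24 regions, 19 of them shared, 1 ranked higher and 8 ranked lower. The flank does not alter the shares over the series. There 62.0% of regions were shared, and of the shared ones 20.2% ranked higher and 20.2% lower. These counts were not tested. Without 1 library a group has a single one and its call alone decides, so counts rise by construction: 1 to 3 siChst7-specific, 3 to 5 siControl-specific, 16 to 22 ranked higher and 26 to 29 ranked lower, with 82 to 84 regions and 61 to 65 shared. Over all regions the shares were then 3.05% to 6.53%, 4.56% to 9.03%, 34.3% to 36.1% and 34.4% to 36.1%. The pathway count was 71 without any 1 library and 73 with a 2.5 kb window. Without 1 library the start-site difference ran from -11.4 to 0.31 percentile points at Ifit1, with the sign turned without siChst7 replicate 2, and from -5.82 to 3.57 at Ifit3, turned without siControl replicate 2 (0.51) or siChst7 replicate 2 (3.57), with no value without siControl replicate 1, whose peak alone covers that start. At Oas1a it ran from -5.72 to 4.63, turned without siControl replicate 1 (4.63) or siChst7 replicate 2 (1.72), at Irf1 from -1.29 to 1.07, turned without siControl replicate 1 (0.78) or siChst7 replicate 1 (1.07), and at Stat2 from -0.45 to 0.21, turned without siChst7 replicate 1. Ranking by fold gave 3.20 at Irf1. The sign was kept at Isg15 (4.94 without siControl replicate 1 to 13.5 without siControl replicate 2), at Irf3 (-6.09 without siControl replicate 2 to -0.50 without siControl replicate 1) and at Irf7 (-10.4 without siControl replicate 2 to -4.45 without siControl replicate 1). The cause of these changes was not tested.

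With the replicate number as a block, 9 shared regions ranked higher and 22 lower within both replicate numbers, of 61, against 27.9% and 28.2% of all shared regions, and the start-site differences were the same, with no exact p below 0.5. The replicate numbers share no stated culture or day, and same-numbered libraries did not deviate together (r = 0.01 over 55924 shared regions, which are not replicates). The background density of siChst7 replicate 2 was 0.757 times that of siControl replicate 1, and this library called 67 of the 84 regions, the fewest. Whether its depth limited the weak regions called in all libraries was not tested.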

Other observations

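A strong region near Ifit1 was called in 1 library of each siRNA. It lay at chr19:34684972-34685423, inside Slc16a12 and 44.1 kb downstream of the Ifit1 start, with a fold enrichment of 23.8 and a −log10 q of 87.1 in siControl replicate 2, and 20.5 and 72.3 in siChst7 replicate 1. Neither siControl replicate 1 nor siChst7 replicate 2 listed a peak there. Its fold enrichment in those 2 libraries was above that of any other region in the 9 windows. Of the 9143 regions in the series called in exactly 2 libraries, the median −log10 q of the weaker peak was 5.64, and in 4 of them, this one included, it was at least 72.3. The region was picked after its values were seen.

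Isg15 ranked near the middle of the shared regions by −log10 q (37.2 to 53.6) and near the bottom by fold enrichment (6.56 to 13.0), the reverse of Ifit3, which stood at 8.70 to 17.2 by −log10 q and at 21.4 to 32.6 by fold enrichment. The order of these 2 effector genes thus depends on which of the authors' columns is read, while the siChst7 against siControl direction at Isg15 does not.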
